A study of Mus musculus with 127 samples.

Results

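Single striatal neurons that expressed an expanded huntingtin fragment and received the histone deacetylase inhibitor RGFP109 were set against neurons that expressed a fragment of normal repeat length and received vehicle, to ask which differences from the control were seen under the drug. The members were taken by their labels: 26 neurons labelled 97Q-Htt with RGFP109 and 29 neurons labelled 25Q-Htt, together 55 of the 127 cells of the series. All were striatal neurons of newborn C57BL/6 mice grown on microislands of astrocytes, and each was collected at day 15 in vitro after a patch-clamp recording. Both groups received a lentivirus with exon 1 of human HTT fused to GFP, carrying 97 glutamines in the group labelled mutant and 25 in the group labelled wild type. The 97Q neurons were given 100 nM RGFP109 on days 6, 9 and 12, and the 25Q neurons were given DMSO. Genotype and drug therefore differ together between the groups, and the remaining transgene groups, 26 neurons with 97Q and vehicle and 23 with 25Q and RGFP109, are used only to set values side by side. Both groups overexpress a short fragment and keep the mouse Htt gene, so neither is an untransduced neuron. The promoter that drives the transgene is not given in the sources used here, and the human transgene is not among the genes of the count table, so the construct in each cell could not be checked against its label.

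Huntingtin with an expanded glutamine tract causes Huntington's disease, in which the spiny projection neurons of the striatum are lost early. These neurons are inhibitory: they make GABA with the glutamic acid decarboxylases Gad1 and Gad2, and the direct and indirect pathway types are marked by different dopamine receptors and neuropeptides. Histone deacetylases remove acetyl groups from histone tails and act within repressor complexes, RGFP109 inhibits HDAC1 and HDAC3, and expanded huntingtin fragments are known to interact with acetyltransferases and other regulators of transcription.

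The promoters of Gad1, Gad2 and Nnat, the genes with the lowest p-values among named protein-coding genes that were lower in 97Q RGFP109 neurons, and of Syp and Sv2a, synaptic vesicle genes that were higher, are printed because the description turns on these genes. Each sequence covers 250 bases before to 50 bases after the start of transcription in RefSeq (GRCm38.p6, plus strand), read 5′ to 3′. Capitals mark any match, on either strand, to TATAAA (the TATA box), CCAAT (the CCAAT box), GGGCGG (the Sp1 box) or TGACGTCA (the cyclic AMP response element). Gad1 lies at chr2:70561879-70562178, Gad2 at chr2:22622077-22622376, Nnat at chr2:157559828-157560127, Sv2a at chr3:96180977-96181276 and Syp at chrX:7638330-7638629.
Gad1: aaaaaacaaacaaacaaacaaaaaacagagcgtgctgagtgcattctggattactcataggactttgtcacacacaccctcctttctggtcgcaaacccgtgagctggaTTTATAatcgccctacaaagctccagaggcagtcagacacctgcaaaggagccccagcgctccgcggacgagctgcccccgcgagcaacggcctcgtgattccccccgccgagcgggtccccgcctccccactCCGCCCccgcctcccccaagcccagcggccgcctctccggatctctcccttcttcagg
Gad2: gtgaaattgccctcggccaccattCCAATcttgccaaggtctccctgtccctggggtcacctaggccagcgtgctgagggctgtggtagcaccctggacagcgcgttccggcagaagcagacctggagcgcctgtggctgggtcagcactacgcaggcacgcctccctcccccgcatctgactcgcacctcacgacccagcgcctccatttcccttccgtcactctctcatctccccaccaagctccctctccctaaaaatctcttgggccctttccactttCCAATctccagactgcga
Nnat: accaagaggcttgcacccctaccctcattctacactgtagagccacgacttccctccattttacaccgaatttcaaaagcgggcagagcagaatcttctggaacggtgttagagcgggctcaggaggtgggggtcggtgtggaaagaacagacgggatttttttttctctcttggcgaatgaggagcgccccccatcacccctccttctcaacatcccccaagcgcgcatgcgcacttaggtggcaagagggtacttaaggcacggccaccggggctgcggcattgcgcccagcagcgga
Sv2a: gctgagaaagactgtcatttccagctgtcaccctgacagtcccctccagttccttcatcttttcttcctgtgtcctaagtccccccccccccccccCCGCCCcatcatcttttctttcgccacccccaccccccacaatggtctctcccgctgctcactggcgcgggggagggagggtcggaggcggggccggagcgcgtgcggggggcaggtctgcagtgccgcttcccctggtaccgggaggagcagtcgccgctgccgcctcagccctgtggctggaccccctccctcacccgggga
Syp: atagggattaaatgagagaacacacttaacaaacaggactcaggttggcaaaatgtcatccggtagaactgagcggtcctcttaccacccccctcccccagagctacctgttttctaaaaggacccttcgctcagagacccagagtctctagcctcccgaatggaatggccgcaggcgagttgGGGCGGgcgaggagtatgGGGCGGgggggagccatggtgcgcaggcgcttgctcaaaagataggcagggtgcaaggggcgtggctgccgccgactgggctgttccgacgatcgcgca
The Gad1 window held 1 TATA box and 1 Sp1 box, the Gad2 window 2 CCAAT boxes, the Sv2a window 1 Sp1 box and the Syp window 2 Sp1 boxes, and the Nnat window held none of the 4 motifs. Matches of different motifs may overlap. Over the 32851 mouse promoters of the same length, 13.6% held a TATA box, 37.4% a CCAAT box, 35.7% an Sp1 box and 1.79% the cyclic AMP response element.

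The counts of the cells were summed per group within each of the 3 labelled batches, which stand as replicates. The 97Q RGFP109 sums held 8, 4 and 14 cells in batches 1, 2 and 3 and the 25Q vehicle sums 10, 4 and 15, with a median of 4511459 counts per cell (999700 to 8480860) in 97Q RGFP109 neurons and 3821912 (1388846 to 6913894) in 25Q vehicle neurons. The 12 sums of the 4 transgene groups ranged from 8665881 to 76217208 counts. Levels below are CPM, counts scaled to a common library total, of such a sum, in the order of batches 1, 2 and 3, and no interval of a count covers the amplification of single-cell cDNA. Markers of excitatory neurons were near 0 in both groups, at 0.5 to 3.6 CPM in 97Q RGFP109 sums and 0.1 to 2.3 CPM in 25Q vehicle sums, and Slc17a6 and Slc17a7, the vesicular glutamate transporters that define them, were at 0 in 97Q RGFP109 neurons. Summed astrocyte markers were at 2177, 2201 and 1848 CPM in 97Q RGFP109 sums against 2843, 662 and 1653 CPM in 25Q vehicle sums, and 4 of 26 and 8 of 29 neurons exceeded 2370 CPM, a limit set 10 times below the median of the 14 cultured astrocytes.

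Of the 113 neurons in the table, 3 had summed levels of 20 pan-neuronal genes below 3439 CPM, 3 times below the neurons' median of 10318 CPM, and all 3 were labelled 97Q with RGFP109. The first, in batch 1, had 2597 CPM. Another cell of batch 1 had 2240 CPM together with 11784 CPM of astrocyte markers. The remaining one, in batch 2, had 1245 CPM and was dominated by Spp1 (osteopontin, 106470 CPM), Mmp12 (the macrophage elastase, 101852 CPM) and Lyz2 (a lysozyme of myeloid cells, 60533 CPM). Microglia markers summed to 1595 CPM in that cell, and reached 566 CPM in its batch sum, against 32.9 and 50.4 CPM in the other 97Q RGFP109 sums and 112, 27.0 and 30.3 CPM in the 25Q vehicle sums. These cells stand apart from the other neurons, so many values that they moved are also given without them.

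No gene of the 15091 tested passed an adjusted p of 0.05 (edgeR's quasi-likelihood test with batch as a term, Benjamini-Hochberg adjustment), 0% of those tested. The lowest adjusted p was 0.392 for Nnat (edgeR, Benjamini-Hochberg), followed by 0.554 for Gad1 and for Gm23134, a small RNA gene whose annotation overlaps that of Nnat. At an unadjusted p under 0.05, 243 genes (1.61%) were higher and 260 (1.72%) lower in 97Q RGFP109 neurons, and 1870 genes (12.4%) were higher and 2172 (14.4%) lower in all 3 batches. The 3 sums of the groups did not overlap for 464 genes that were higher (3.07%) and 661 that were lower (4.38%). DESeq2 called 198 genes at the same threshold, 82 higher and 116 lower, and limma-voom called 0, with 837 genes at an unadjusted p under 0.05. Without the 3 cells edgeR again called 0, with 562 genes at an unadjusted p under 0.05. The differences below are therefore described by their values, and words such as lower and higher state the direction of the estimate.

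**Figure D1:**
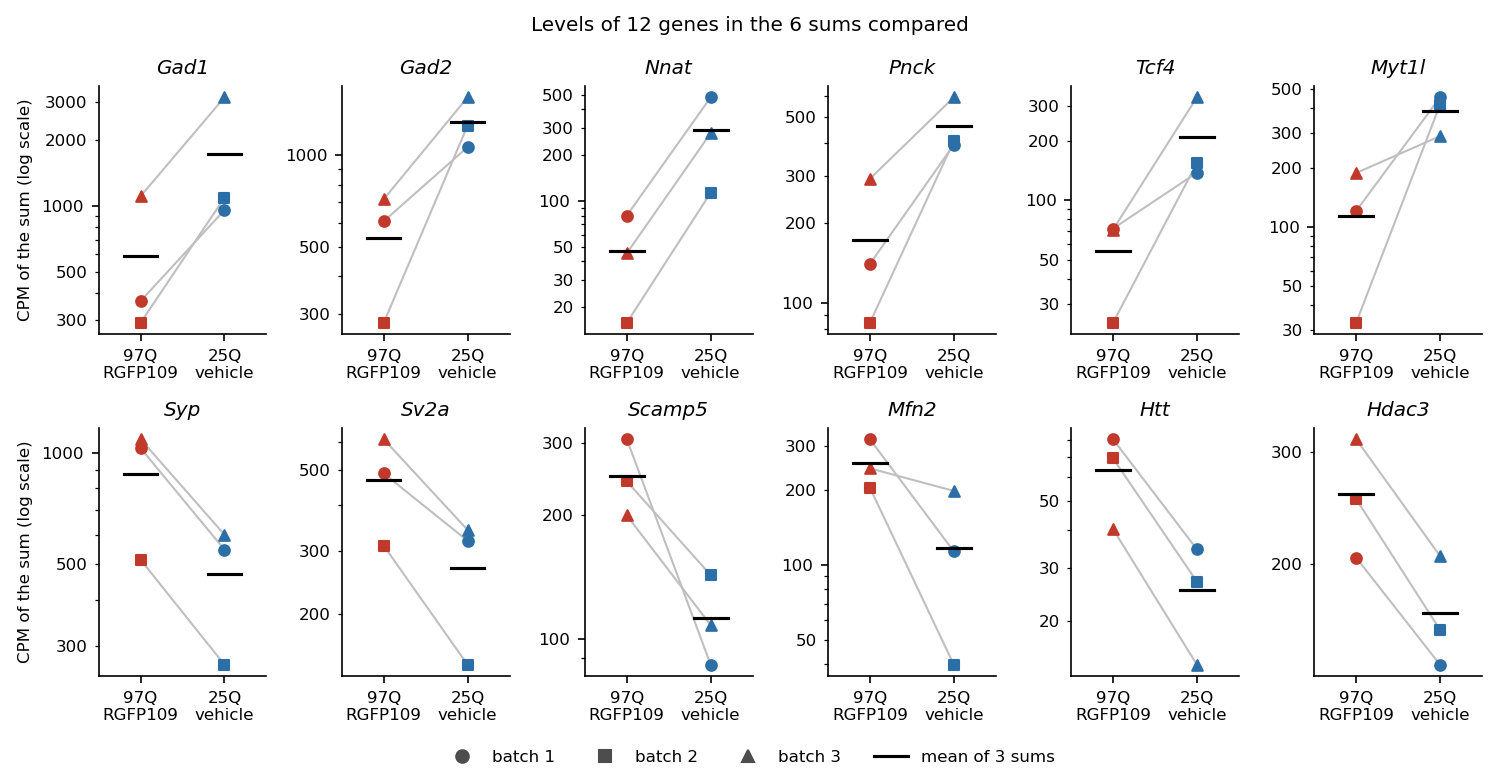
Levels of 12 genes in each sum, as CPM on a log axis, with 97Q RGFP109 left of 25Q vehicle. Markers show the batch, lines join sums of the same batch and black bars are means; Gad2 and Nnat are lower in every 97Q RGFP109 sum than in any 25Q vehicle sum, while Syp and Sv2a are higher within each batch with overlapping groups.

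Both enzymes that make GABA were lower in every batch. Gad1 (chr2:70553072-70602014, plus strand, GRCm38) had 366, 291 and 1108 CPM in 97Q RGFP109 sums against 958, 1091 and 3149 CPM in 25Q vehicle sums, means of 589 ± 452 and 1732 ± 1228 CPM (SD, n = 3 each). It was lower within every batch, but the groups overlapped because both were highest in batch 3, and the log2 fold change was −1.54 (SE 0.24). Gad2 (chr2:22622205-22693874, plus strand) had 607, 281 and 718 CPM in 97Q RGFP109 sums against 1066, 1254 and 1554 CPM in 25Q vehicle sums, means of 535 ± 227 and 1291 ± 246 CPM (SD, n = 3 each). The groups did not overlap, and the log2 fold change was −1.29 (SE 0.24, adjusted p = 1.00, edgeR, Benjamini-Hochberg). DESeq2 gave adjusted p-values of 3.69e-04 for Gad1 and 0.00134 for Gad2, and limma-voom gave 0.591 for both. Over 15 alternative settings, the log2 fold change lay between −2.25 and −1.26 for Gad1 and between −1.68 and −0.98 for Gad2, and without the 3 cells low in neuronal genes it was −1.37 and −1.12. In batch 2, 1 of the 4 97Q RGFP109 cells had 1312 CPM of Gad1 and the others at most 33.4 CPM, and without that cell the log2 fold change of Gad1 was −2.25. In batch 3, 1 of the 15 25Q vehicle cells had 11582 CPM of Gad1, against a median of 1958 CPM over the 15. It was among the neurons rich in astrocyte markers, and without all such neurons the log2 fold change of Gad1 was −1.30.

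Abat, which breaks GABA down, had 286, 121 and 328 CPM in 97Q RGFP109 sums against 317, 197 and 409 CPM in 25Q vehicle sums, a log2 fold change of −0.33 (SE 0.24) with overlapping groups, and −0.18 without the 3 cells. Slc32a1, the vesicular GABA transporter, had 22.4, 2.16 and 17.3 CPM in 97Q RGFP109 sums against 14.4, 23.1 and 9.98 CPM in 25Q vehicle sums, and its direction differed between batches. Of 14 tested genes of GABA synthesis and transport, 10 were lower and 4 higher, with a median log2 fold change of −0.26 against 0.01 over all genes tested. Of these, 3 were lower at an unadjusted p under 0.05 (1.72% of all genes), 5 were lower in all 3 batches (14.4% of all genes) and 2 were lower without overlap (4.38% of all genes). Among 28 genes of GABA receptors and the inhibitory postsynapse 14 were higher and 14 lower, with a median of −0.05. Of the 28, 2 were lower without overlap (4.38% of all genes) and 0 higher (3.07%). Gabra2, a receptor subunit, had 382, 313 and 603 CPM in 97Q RGFP109 sums against 656, 720 and 918 CPM in 25Q vehicle sums, a log2 fold change of −0.81 (SE 0.35) with no overlap.

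Genes of striatal projection neurons were lower in most cases: 33 of 38 tested were lower and 5 higher, against 49.3% lower over all genes. The median log2 fold change was −0.77, with batch medians of −0.28, −1.27 and −1.19, and it was −0.63 without batch 2. Of 12 genes taken to define these neurons, 11 were tested, 8 lower and 3 higher. Of the 38, 17 were lower in all 3 batches (14.4% of all genes) and 5 were lower without overlap (4.38%). At an unadjusted p under 0.05, 3 were lower (1.72% of all genes). The summed level of the list was 3682, 2868 and 1902 CPM in 97Q RGFP109 sums against 5617, 10272 and 3547 CPM in 25Q vehicle sums. In such sums, fewer cells of a type and less RNA per cell cannot be told apart. Pde10a, the striatal phosphodiesterase, had 81.1, 0 and 25.7 CPM in 97Q RGFP109 sums against 169, 320 and 151 CPM in 25Q vehicle sums. Gng7, the G protein subunit that couples dopamine and adenosine receptors to adenylyl cyclase, had 253, 190 and 95 CPM in 97Q RGFP109 sums against 394, 1109 and 376 CPM in 25Q vehicle sums. Neither gene overlapped between the groups, and the log2 fold change of Gng7 was −1.73 (SE 0.74). Meis2, a homeobox factor of striatal neurons, had 161, 63.5 and 164 CPM in 97Q RGFP109 sums against 265, 665 and 250 CPM in 25Q vehicle sums, a log2 fold change of −1.48 (SE 0.61) with no overlap, and −0.70 without batch 2. The 20 pan-neuronal genes, which mark neurons of any kind, had 12 lower and 8 higher with a median of −0.14. Without the 3 cells this median was −0.01, but those cells were picked for low levels of these same genes. Leaving them out therefore raises this median by the way they were chosen. Interneuron markers had 6 of 7 tested genes lower, with a median of −2.45, and 1 was lower in all 3 batches (14.4% of all genes). That median rested on batch 3: without it 4 of 7 were higher, with a median of 0.40, and without the neurons rich in astrocyte markers the median was −0.77. These markers summed to 23.9 to 102 CPM in 97Q RGFP109 sums and 42.1 to 435 CPM in 25Q vehicle sums.

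Receptors and peptides that separate the projection neuron types were carried by few cells, and their sums varied accordingly. Ppp1r1b, which encodes DARPP-32, had 344, 39.6 and 8.24 CPM in 97Q RGFP109 sums against 414, 1779 and 85.2 CPM in 25Q vehicle sums. Its direction was the same in every batch, with a log2 fold change of −2.90 (SE 1.71) that was −1.68 without batch 2, and the groups overlapped. The dopamine receptor Drd1 had 9.80, 0 and 13.9 CPM in 97Q RGFP109 sums against 4.25, 173 and 33.2 CPM in 25Q vehicle sums. Drd2 had 10.6, 27.1 and 7.02 CPM in 97Q RGFP109 sums against 42.3, 13.7 and 29.6 CPM in 25Q vehicle sums, and Penk, the enkephalin precursor, had 56.8, 166 and 1.86 CPM against 715, 17.8 and 87.6 CPM. The direction of all 3 differed between batches. The adenosine receptor Adora2a had 2.64, 0.464 and 4.91 CPM in 97Q RGFP109 sums against 20.9, 0.216 and 16.8 CPM in 25Q vehicle sums, lower in batches 1 and 3 and higher in batch 2. Pde1b, a calmodulin-dependent phosphodiesterase, had 85.4, 39.7 and 34.6 CPM in 97Q RGFP109 sums against 100, 128 and 84.1 CPM in 25Q vehicle sums. The transcription factor Foxp1 had 118, 124 and 55.3 CPM in 97Q RGFP109 sums against 144, 345 and 83.2 CPM in 25Q vehicle sums, with a log2 fold change of −0.81. Bcl11b, which encodes CTIP2, had 49.1, 70.1 and 24.1 CPM in 97Q RGFP109 sums against 53.2, 109 and 45.8 CPM in 25Q vehicle sums, with a log2 fold change of −0.50 and overlapping groups. The peptide precursors Tac1 and Pdyn had a count in too few cells to be tested: Tac1 in 3 of 26 and 3 of 29 cells, and Pdyn in 2 of 26 and 2 of 29.

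Genes of glutamate signalling and of calcium handling were also lower in most cases. Among 42 glutamate receptor and postsynaptic genes 32 were lower and 10 higher, with a median log2 fold change of −0.61 and batch medians of −0.12, −0.83 and −0.37, and 13 were lower in all 3 batches (14.4% of all genes). Without batch 2 the median was −0.19, with 26 lower and 16 higher. Grik1, a kainate receptor subunit, had 7.85, 12.2 and 37.8 CPM in 97Q RGFP109 sums against 60.4, 91.6 and 193 CPM in 25Q vehicle sums, a log2 fold change of −2.63 (SE 0.78), and −4.54 without the 3 cells. Cacng3, an AMPA receptor auxiliary subunit, had 18.1, 38.0 and 49.9 CPM in 97Q RGFP109 sums against 156, 60.1 and 193 CPM in 25Q vehicle sums, a log2 fold change of −1.85 (SE 0.53). Grin2b, an NMDA receptor subunit, had 99.5, 161 and 258 CPM in 97Q RGFP109 sums against 272, 738 and 294 CPM in 25Q vehicle sums, a log2 fold change of −1.30 (SE 0.47), and −0.83 without batch 2. None of these 3 genes, picked for a small p within the list, overlapped between the groups. Of the 42, 4 were lower without overlap (4.38% of all genes) and 0 higher (3.07%). Of 30 calcium binding and signalling genes 23 were lower and 7 higher, with a median of −0.51, and 12 were lower in all 3 batches. Calm2, a calmodulin gene, had 1345, 2318 and 2176 CPM in 97Q RGFP109 sums against 2032, 4277 and 2630 CPM in 25Q vehicle sums, a log2 fold change of −0.52 (SE 0.17) with overlapping groups.

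For 50 ion channel genes, 34 were lower and 16 higher, with a median of −0.36, which became 0.03 without batch 2, the batch with 4 cells in each group. Immediate early genes had a median of −0.84 over 23 tested, 15 lower and 8 higher, and the median was −0.25 without batch 2 and −0.15 over the genes tested with no filter on low counts. Junb, a subunit of the AP-1 transcription factor, had 56.9, 53.5 and 59.4 CPM in 97Q RGFP109 sums against 114, 139 and 85.9 CPM in 25Q vehicle sums, a log2 fold change of −0.92 (SE 0.39). Its exons overlap another annotated gene, as do those of Slc32a1, Ppp1r1b, Penk, Foxp1, Grin2b and, among genes described below, Nnat, Myt1l, Ttc3, Syp, Tpr, Pank2, Bdnf, Psmb7 and Ctsl, and whether reads were counted by strand is not stated in the labels.

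**Figure D2:**
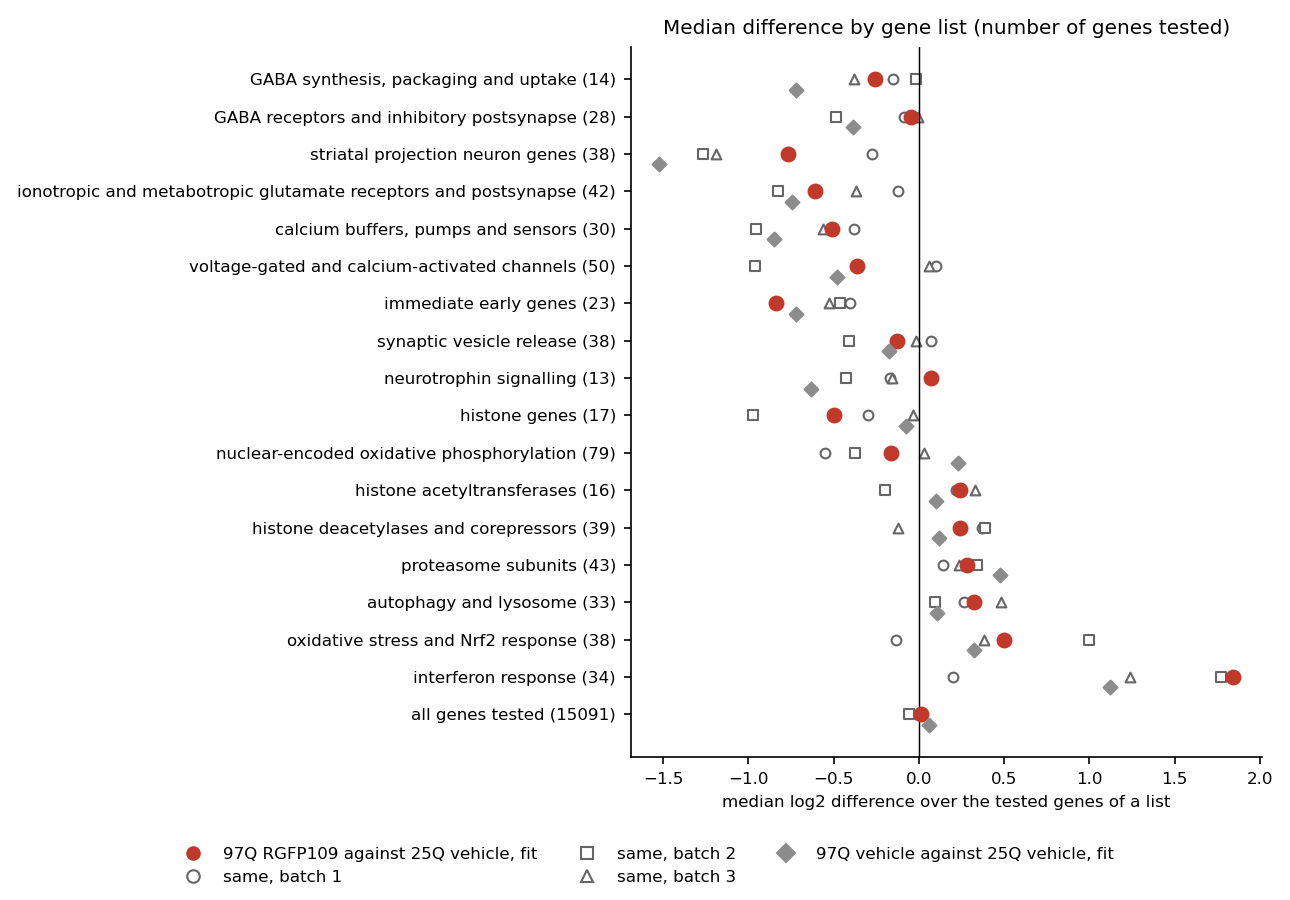
Median log2 difference between 97Q RGFP109 and 25Q vehicle neurons for 17 gene lists and for all genes tested, in red, with the median within each batch as open markers. Grey diamonds give the 97Q against 25Q difference under vehicle, which shares the 25Q vehicle sums; striatal, glutamate and calcium lists lie below 0 and interferon and oxidative stress lists above it, with wide spread between batches.

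Outside these lists, Nnat was the gene with the lowest p. Nnat encodes neuronatin, an imprinted small membrane protein of the endoplasmic reticulum in developing neurons, and lies at chr2:157560078-157562522 on the plus strand. It had 80.1, 15.8 and 45.3 CPM in 97Q RGFP109 sums against 481, 113 and 279 CPM in 25Q vehicle sums, means of 47.1 ± 32.2 and 291 ± 184 CPM (SD, n = 3 each). The groups did not overlap, and the log2 differences within batches 1, 2 and 3 were −2.57, −2.77 and −2.60. The fitted log2 fold change was −2.62 (SE 0.34, adjusted p = 0.392, edgeR, Benjamini-Hochberg). It lay between −2.92 and −2.22 over the 15 alternatives and was −2.59 without the 3 cells low in neuronal genes. DESeq2 gave an adjusted p of 4.07e-09 and limma-voom 0.227. Gm23134, which overlaps the Nnat annotation, had 25.8, 7.65 and 11.7 CPM in 97Q RGFP109 sums against 133, 50.2 and 84.2 CPM in 25Q vehicle sums, and how reads were divided between them is not given in the sources used here.

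Further genes were lower in all 3 batches, with a p among the smallest 12 in that direction. Pnck, a calmodulin-dependent protein kinase, had 141, 84.5 and 293 CPM in 97Q RGFP109 sums against 394, 407 and 594 CPM in 25Q vehicle sums, a log2 fold change of −1.51 (SE 0.28). Tcf4, a basic helix-loop-helix transcription factor, had 71.9, 24.0 and 71 CPM in 97Q RGFP109 sums against 138, 154 and 331 CPM in 25Q vehicle sums, a log2 fold change of −1.87 (SE 0.41). Myt1l, a zinc finger factor of neuronal identity, had 120, 32.7 and 188 CPM in 97Q RGFP109 sums against 454, 417 and 288 CPM in 25Q vehicle sums, a log2 fold change of −1.95 (SE 0.46). No sum of one group reached the range of the other for these 3 genes. Rgs10, a regulator of G protein signalling, had 4.88, 7.89 and 32.6 CPM in 97Q RGFP109 sums against 54.5, 206 and 75.9 CPM in 25Q vehicle sums, and Sesn3, a sestrin that restrains mTORC1, had 43.5, 9.51 and 31 CPM against 131, 310 and 141 CPM. Ttc3, a ubiquitin ligase, had 1021, 761 and 1074 CPM in 97Q RGFP109 sums against 1773, 2107 and 1582 CPM in 25Q vehicle sums, a log2 fold change of −0.89 (SE 0.22). Rgs10, Sesn3 and Ttc3 did not overlap between the groups either.

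Synaptic vesicle genes did not share a direction: 24 of 38 tested were lower and 14 higher, with a median of −0.13 (19 higher and 19 lower without the 3 cells), and at an unadjusted p under 0.05 3 were higher (1.61% of all genes) and 1 lower (1.72%). Syp, synaptophysin, had 1028, 513 and 1086 CPM in 97Q RGFP109 sums against 546, 267 and 600 CPM in 25Q vehicle sums, means of 876 ± 315 and 471 ± 179 CPM (SD, n = 3 each). It was higher within every batch by a log2 fold change of 0.97 (SE 0.27), and the groups overlapped through batch 2. Without the 3 cells its 97Q RGFP109 sums were 1137, 780 and 1086 CPM, above every 25Q vehicle sum. Its batch 2 sum rested on 1 cell with 2305 CPM, while the other cells of that batch had 5.60, 120 and 243 CPM. Sv2a, a vesicle glycoprotein, had 490, 310 and 609 CPM in 97Q RGFP109 sums against 319, 145 and 342 CPM in 25Q vehicle sums, a log2 fold change of 0.91 (SE 0.24) with overlapping groups. Without the 3 cells its 97Q RGFP109 sums were 568, 438 and 609 CPM, above every 25Q vehicle sum, and the same cell of batch 2 had 1092 CPM. Scamp5, another vesicle membrane protein, had 306, 242 and 200 CPM in 97Q RGFP109 sums against 86.8, 143 and 108 CPM in 25Q vehicle sums, a log2 fold change of 1.18 (SE 0.32) with no overlap. Rab3c, a vesicle GTPase, ran the other way with 196, 39.4 and 172 CPM in 97Q RGFP109 sums against 361, 153 and 609 CPM in 25Q vehicle sums. Over the 15 alternatives the log2 fold change of Syp lay between 0.39 and 1.32 and that of Sv2a between 0.62 and 1.12.

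The genes that were higher in all 3 batches with the smallest p included several of general cell function. Mfn2, the mitochondrial fusion GTPase mitofusin 2, had 319, 204 and 244 CPM in 97Q RGFP109 sums against 113, 39.8 and 198 CPM in 25Q vehicle sums, a log2 fold change of 1.52 (SE 0.41), and 0.91 without batch 2. Tpr, a component of the nuclear pore basket, had 160, 161 and 92.4 CPM in 97Q RGFP109 sums against 93.1, 44.2 and 50.1 CPM in 25Q vehicle sums, a log2 fold change of 1.30 (SE 0.36), and 0.81 without batch 2. Mfn2 did not overlap between the groups, whereas Tpr did. Sgpl1, the lyase that degrades sphingosine 1-phosphate, had 81.8, 241 and 54.5 CPM in 97Q RGFP109 sums against 27.9, 9.07 and 13.4 CPM in 25Q vehicle sums, a log2 fold change of 2.95 (SE 0.86). Without the 3 cells its 97Q RGFP109 sums were 49.3, 105 and 54.5 CPM and the log2 fold change was 2.11, and it was 1.76 without batch 2. Pank2, a pantothenate kinase, had 54.3, 45.5 and 12.6 CPM in 97Q RGFP109 sums against 5.80, 5.51 and 4.59 CPM in 25Q vehicle sums, and Efr3a, which anchors a lipid kinase at the plasma membrane, had 294, 115 and 69.2 CPM against 50.0, 65.9 and 29.0 CPM. None of Sgpl1, Pank2 and Efr3a overlapped between the groups. Tsix, the RNA antisense to Xist, had a log2 fold change of 7.81 (SE 2.20) that became −1.83 without the neurons rich in astrocyte markers, and its exons overlap those of Xist. Xist was at or above 5 CPM in 8 of 26 cells of the 97Q RGFP109 group and 10 of 29 of the 25Q vehicle group.

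Among the targets of the drug, Hdac3 had 205, 253 and 314 CPM in 97Q RGFP109 sums against 139, 158 and 206 CPM in 25Q vehicle sums. It was higher in all 3 batches by a log2 fold change of 0.71 (SE 0.28), with overlapping groups. With the 3 cells left out its 97Q RGFP109 sums were 227, 362 and 314 CPM, above every 25Q vehicle sum. Hdac1 was low throughout, at 24.6, 9.82 and 21.4 CPM in 97Q RGFP109 sums against 11.8, 2.16 and 19.0 CPM in 25Q vehicle sums. Hdac2 had 393, 56.6 and 30.5 CPM in 97Q RGFP109 sums against 166, 142 and 51.2 CPM in 25Q vehicle sums and did not keep its direction between batches. Of 39 deacetylase and corepressor genes 25 were higher and 14 lower, with a median of 0.24 and batch medians of 0.37, 0.39 and −0.12. Hdac6, the cytoplasmic tubulin deacetylase, had 202, 74.4 and 164 CPM in 97Q RGFP109 sums against 59.4, 16.1 and 147 CPM in 25Q vehicle sums, while Hdac9 had 10.4, 62.9 and 52.9 CPM against 58.6, 249 and 109 CPM. Kdm1a, the lysine demethylase of the CoREST complex, had 54.4, 115 and 47 CPM in 97Q RGFP109 sums against 44.2, 34.4 and 19.6 CPM in 25Q vehicle sums, with no overlap. The acetyltransferase Crebbp had 60.3, 61.2 and 84.9 CPM in 97Q RGFP109 sums against 88.7, 131 and 106 CPM in 25Q vehicle sums, a log2 fold change of −0.59 (SE 0.32) with no overlap. Among 16 histone acetyltransferase genes 9 were higher and 7 lower (median 0.24). Among 15 genes known to respond to deacetylase inhibitors 7 were higher and 8 lower (median −0.14), with batch medians of −0.09, 0.85 and 0.21. The median of these 15 was 0.27 without batch 1, −0.12 without batch 2 and 0.05 without batch 3, so its direction was not stable. Histone genes had 13 of 17 tested lower, with a median of −0.50, and 5 were lower in all 3 batches (14.4% of all genes). Without the 3 cells the median of the histone genes was −0.77.

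Mouse Htt had 80.2, 69.3 and 40.3 CPM in 97Q RGFP109 sums against 34.5, 26.9 and 14.3 CPM in 25Q vehicle sums. The groups did not overlap, with a log2 fold change of 1.44 (SE 0.61) that was 0.91 without 1 97Q RGFP109 cell of batch 2, and reads of the human exon 1 transgene that align to mouse Htt cannot be told apart from reads of the endogenous gene. Rest, the neuronal gene repressor held in the cytoplasm by normal huntingtin, had 9.73, 17.0 and 1.71 CPM in 97Q RGFP109 sums against 0.566, 0.054 and 13.2 CPM in 25Q vehicle sums, so its direction differed in batch 3. The 97Q RGFP109 sum of Rest in batch 2 without the 3 cells was 1.42 CPM, and its log2 fold change of 5.01 became 2.85. Bdnf, the neurotrophin that Rest represses, had 1.5, 8.81 and 2.43 CPM in 97Q RGFP109 sums against 3.08, 0 and 14.2 CPM in 25Q vehicle sums, and its receptor Ntrk2 had 192, 217 and 292 CPM against 217, 159 and 328 CPM. Neither Bdnf nor Ntrk2 had 1 direction in all batches. Of 13 neurotrophin signalling genes 7 were higher and 6 lower (median 0.07), while the batch medians were −0.17, −0.43 and −0.16. Of 21 genes for huntingtin and its partners 9 were higher and 12 lower (median −0.15), with batch medians of −0.02, −0.65 and 0.26. The median of the huntingtin list was −0.44 without the 3 cells and 0.09 without batch 2. Without the neurons rich in astrocyte markers it was 0.11, so its direction was not stable.

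Genes of protein turnover were higher in most cases by small amounts. Of 43 proteasome genes 35 were higher and 8 lower, with a median log2 fold change of 0.28 and batch medians of 0.14, 0.34 and 0.24, against 50.7% higher over all genes. Of these, 15 were higher in all 3 batches (12.4% of all genes), 7 were higher at an unadjusted p under 0.05 (1.61% of all genes) and 0 were higher without overlap (3.07%). The median was 0.12 without batch 2, with 27 higher and 16 lower, and 0.05 as a mean log2 level over cells, with 26 higher and 17 lower. Psmb7, a catalytic subunit, had 203, 410 and 283 CPM in 97Q RGFP109 sums against 129, 159 and 206 CPM in 25Q vehicle sums, a log2 fold change of 0.89 (SE 0.27), and 0.54 without batch 2. Psmg2, an assembly chaperone of the proteasome, ran the other way with 31.4, 13.5 and 63 CPM in 97Q RGFP109 sums against 82.0, 48.4 and 100 CPM in 25Q vehicle sums. Of 33 autophagy and lysosome genes 26 were higher and 7 lower, with a median of 0.33. Lamp2, a lysosomal membrane protein, had 255, 367 and 422 CPM in 97Q RGFP109 sums against 233, 72.2 and 264 CPM in 25Q vehicle sums, a log2 fold change of 1.00 that was 0.38 without batch 2. The protease Ctsl had 568, 8650 and 983 CPM in 97Q RGFP109 sums against 516, 848 and 646 CPM in 25Q vehicle sums, and its log2 fold change of 1.96 became 0.23 without the 3 cells. Of 42 heat shock and chaperone genes 17 were higher and 25 lower, with a median of −0.06 (0.05 without the 3 cells). Dnajb1, an HSP40 cochaperone, had 86.7, 27.5 and 120 CPM in 97Q RGFP109 sums against 66.2, 6.86 and 28.7 CPM in 25Q vehicle sums, a log2 fold change of 1.5 (SE 0.57).

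Interferon and oxidative stress genes lay on the higher side, with large differences between batches. Of 34 interferon-stimulated genes 31 were higher and 3 lower, with a median log2 fold change of 1.84 and batch medians of 0.20, 1.77 and 1.24. The median was 0.88 without batch 2 and 1.11 without the 3 cells low in neuronal genes, and of the 34, 12 were higher in all 3 batches (12.4% of all genes), 4 higher without overlap (3.07%) and 0 higher at an unadjusted p under 0.05 (1.61%). As a mean log2 level over cells the median was 0.66. Microglia markers were highest in the same batch 2 sum, at 566 CPM, and their part in the result was not tested beyond leaving out those cells. Ifit1, an interferon-induced RNA-binding protein, had 31.3, 39.1 and 90.8 CPM in 97Q RGFP109 sums against 11.9, 10.6 and 6.01 CPM in 25Q vehicle sums, with no overlap and a log2 fold change of 2.33 (SE 1.87), which was 1.51 without 1 97Q RGFP109 cell of batch 2. Of 38 oxidative stress genes 31 were higher and 7 lower, with a median of 0.50 and batch medians of −0.14, 1.00 and 0.39. That median was 0.28 without the 3 cells and 0.22 without batch 2, with 25 higher and 13 lower. Prdx1, a peroxiredoxin, had 349, 21185 and 449 CPM in 97Q RGFP109 sums against 326, 413 and 284 CPM in 25Q vehicle sums, and 84.3% of its 97Q RGFP109 counts came from 1 cell. Its log2 fold change of 3.23 became 0.51 without the 3 cells. Gclc, the rate-limiting enzyme of glutathione synthesis, had 62.5, 79.5 and 23.1 CPM in 97Q RGFP109 sums against 35.6, 27.3 and 9.83 CPM in 25Q vehicle sums, a log2 fold change of 1.23 (SE 0.55) with overlapping groups.

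Genes of oxidative phosphorylation encoded in the nucleus were lower in 52 of 79 cases, with a median of −0.16, batch medians of −0.55, −0.37 and 0.03, and 15 lower in all 3 batches against 14.4% of all genes. Without batch 1 there was no common direction, with 40 higher and 39 lower, and without the 3 cells the median was −0.09. Cox7b, a subunit of cytochrome oxidase, had 273, 424 and 237 CPM in 97Q RGFP109 sums against 464, 707 and 271 CPM in 25Q vehicle sums, a log2 fold change of −0.50 (SE 0.21). The 7 tested genes encoded by the mitochondrion had a median of −0.07, with 2 higher and 5 lower. All 7 were lower without the 3 cells, with a median of −0.38, while without the neurons rich in astrocyte markers 6 were higher, with a median of 0.15. Cholesterol synthesis genes had 17 of 26 higher, with a median of 0.36 and batch medians of 0.07, −1.81 and 1.02, so the direction was not shared between batches, and without batch 3 the median was −0.58. Insig2, which holds the sterol sensor in the endoplasmic reticulum, had 227, 501 and 179 CPM in 97Q RGFP109 sums against 140, 232 and 151 CPM in 25Q vehicle sums, with a log2 fold change of 0.85 that was 0.47 without batch 2.

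**Figure D3:**
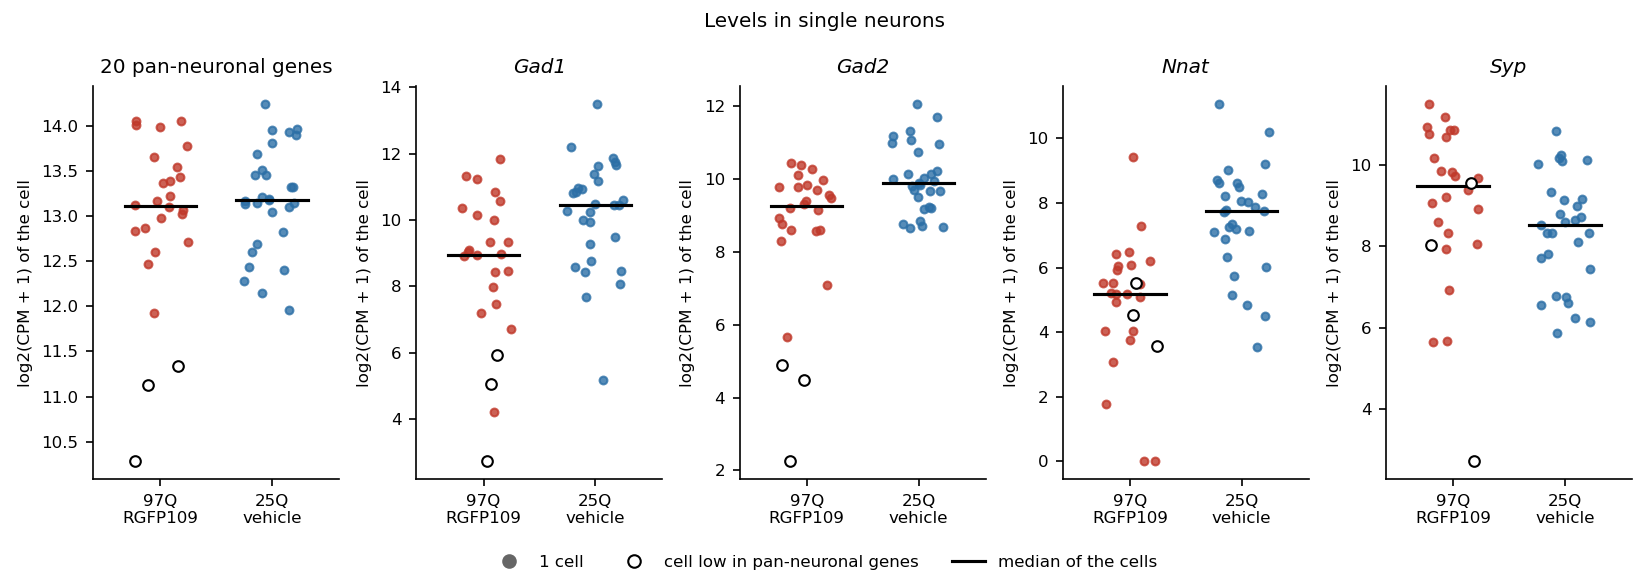
Levels in single neurons as log2(CPM + 1), with 26 97Q RGFP109 cells left of 29 25Q vehicle cells, for the summed pan-neuronal genes, Gad1, Gad2, Nnat and Syp. Bars are medians and open circles are the 3 cells low in pan-neuronal genes; only 2 of 26 97Q RGFP109 cells reach 100 CPM of Nnat, against 22 of 29 25Q vehicle cells.

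The levels in single cells are given as a description, since the cells of a batch are not independent replicates. Gad1 had a median of 495 CPM (5.66 to 3644) over 97Q RGFP109 cells and 1415 CPM (35.6 to 11582) over 25Q vehicle cells. Gad2 had a median of 610 CPM (3.77 to 1392) over 97Q RGFP109 cells and 943 CPM (401 to 4275) over 25Q vehicle cells. Most cells of both groups thus had both decarboxylases, and the ranges overlapped widely. Gad2 reached 100 CPM in 22 of 26 97Q RGFP109 cells (84.6%, 95% Clopper-Pearson interval 65.1% to 95.6%) and 29 of 29 25Q vehicle cells (100%, 88.1% to 100%). Of the 4 97Q RGFP109 cells under that level 3 were the cells low in pan-neuronal genes, and without them 22 of 23 reached it (95.7%, 78.1% to 99.9%). Nnat had a median of 35.6 CPM (0 to 680) over 97Q RGFP109 cells and 212 CPM (10.5 to 2150) over 25Q vehicle cells. It reached 100 CPM in 2 of 26 97Q RGFP109 cells (7.69%, 0.946% to 25.1%) and 22 of 29 25Q vehicle cells (75.9%, 56.5% to 89.7%), and without the low cells in 2 of 23 97Q RGFP109 cells (8.70%, 1.07% to 28.0%). The 14 cultured astrocytes, which should lack these genes, had at most 2.45 CPM of Gad1, 0.816 CPM of Gad2 and 69.2 CPM of Nnat. Syp had a median of 713 CPM (5.60 to 2893) over 97Q RGFP109 cells and 364 CPM (57.2 to 1828) over 25Q vehicle cells. In batch 2 the order was the other way, with a median of 182 CPM over 97Q RGFP109 cells and 214 CPM over 25Q vehicle cells. That order depended on the low cell dominated by Spp1, which had 5.60 CPM, while the others had 120, 243 and 2305 CPM. Without the low cells the median of Syp over all 97Q RGFP109 cells was 812 CPM. The intervals cover the counting of cells only.

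**Figure D4:**
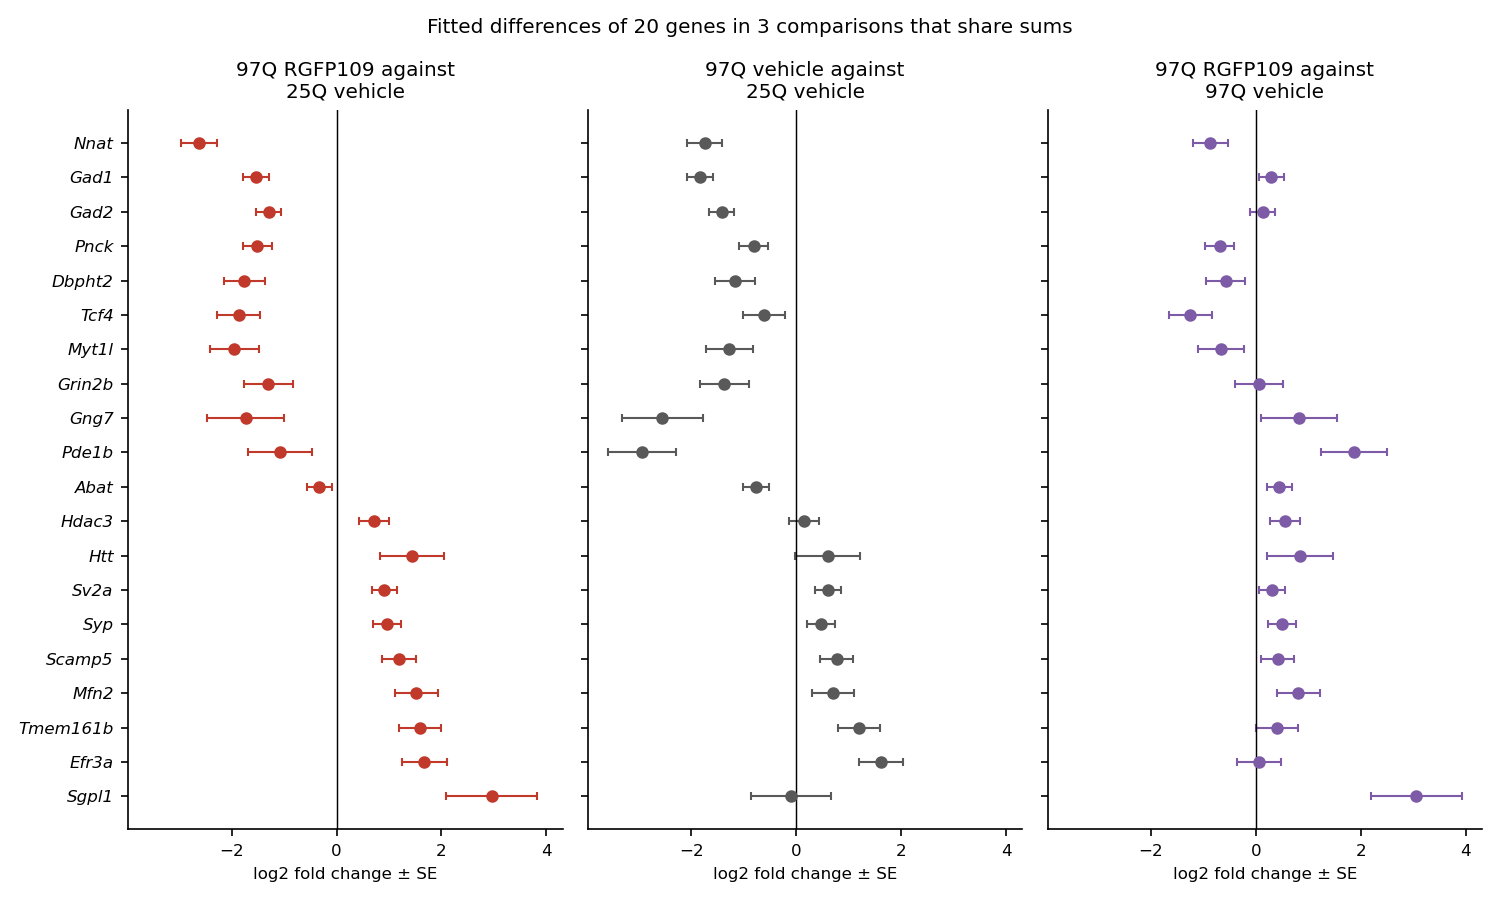
Log2 fold change with its SE for 20 genes in 3 comparisons fitted together: 97Q RGFP109 against 25Q vehicle, 97Q vehicle against 25Q vehicle, and 97Q RGFP109 against 97Q vehicle. The comparisons share sums and are not independent; for Gad1 and Gad2 the drug comparison within 97Q lies near 0, at 0.30 and 0.13, and for Sgpl1 it is 3.06.

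The same fit gives the difference between 97Q and 25Q neurons under vehicle, and the difference between drug and vehicle within 97Q neurons, whose sum is the difference described above. These comparisons share sums, so they are given side by side and not as support for one another. For Gad1 the log2 fold change was −1.54 (SE 0.24) for 97Q RGFP109 against 25Q vehicle, −1.83 (SE 0.25) for 97Q vehicle against 25Q vehicle, and 0.30 (SE 0.24) for the drug within 97Q. For Gad2 these values were −1.29, −1.42 and 0.13 (SE 0.23 for the drug within 97Q). The estimate for the drug within 97Q was 1 SE or less for Gad2 and little over 1 SE for Gad1. For Nnat they were −2.62, −1.75 (SE 0.34) and −0.87 (SE 0.33), and for Tcf4 −1.87, −0.62 (SE 0.40) and −1.25 (SE 0.41), so the estimates for the drugged 97Q neurons lay further from the control. For Pde1b they were −1.08, −2.94 (SE 0.66) and 1.86 (SE 0.63), and for Gng7 −1.73, −2.55 (SE 0.77) and 0.82 (SE 0.73), so these estimates lay nearer to it. For Sgpl1 they were 2.95, −0.10 (SE 0.77) and 3.06 (SE 0.87), the first becoming 2.11 without the 3 cells, and for Htt 1.44, 0.60 and 0.84. Over the lists, the medians for these comparisons were −0.77, −1.52 and 0.66 for striatal genes and −0.61, −0.75 and 0.30 for glutamate genes. They were 0.28, 0.48 and −0.09 for proteasome genes and 1.84, 1.12 and 0.64 for interferon-stimulated genes. For RGFP109 against vehicle within 25Q neurons, the medians were −1.19 for striatal genes and −0.09 for glutamate genes. In that comparison they were 0.19 for proteasome genes and 0.84 for interferon-stimulated genes. The summed level of the striatal list was 3597, 2585 and 3400 CPM in 25Q RGFP109 sums. All these values include the 3 cells.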

How the data were processed

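Single-cell RNA-seq libraries (SMARTer cDNA, Nextera XT, no molecular identifiers named) gave a deposited table of raw counts per gene for 127 cells. Per the submitters' processing notes, the tools were FastQC, Trimmomatic 0.36, STAR 2.5 and HTSeq 0.9.1 with builds GRCm38 and mm10; no strand setting or annotation release is stated there. Of 53465 genes, 53274 matched a symbol.

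Counts were summed per group and batch into 12 sums (4 transgene groups, 3 batches) and fitted with edgeR 4.0.16 in R 4.3.3: TMM, robust quasi-likelihood fit, group and batch as terms, 6 residual degrees of freedom. Genes passed filterByExpr and had a count in at least 20% of 104 cells, and p-values were adjusted (Benjamini-Hochberg) over 15091 genes at a threshold of 0.05, two-sided. SE is the log2 fold change divided by the square root of F. Alternatives included DESeq2 1.42.0 and limma 3.58.1. The fit was also run on simulated data, whose outcome is not reported here and on which no statement rests. A test of 1 gene over 3 against 3 sums alone, with their pairing by batch ignored, cannot go below an exact permutation p of 0.1. With the pairing kept, fewer arrangements are left and this limit is higher.

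Batch is a shared label, and deviations of sums from their group means were correlated within it. The lowest and highest correlation was 0.156 and 0.23 within batch 1, 0.0614 and 0.134 within batch 2, and 0.254 and 0.328 within batch 3. Between batches the correlation was −0.262 to 0.0938. The deviations of a group cancel out over its batches, so positive values within batches by themselves push those between batches down. The labels name no animals, and shifts shared by a whole batch are taken out by the batch term. The p-values therefore rest on how unevenly the groups differ from batch to batch, over all 4 transgene groups. That spread includes the sampling of few cells per sum and may be technical. The members, gene lists and naming rule were chosen with earlier results of these data known. Named were a set of GABA, striatal and drug-target genes, and the 12 genes per direction with the smallest p. Each of the 12 had a mean of at least 20 CPM, 1 sign in all batches and at most 50% of counts from 1 cell. Also named were up to 4 per list with the smallest p. These members had a mean of at least 5 CPM and 1 sign in all batches, so they are not typical of their lists. Gm23134, Xist, Spp1, Mmp12 and Lyz2 were added after their values were seen. The series text gives 117 neurons, and 113 were held here. A few genes that the rule names are not reported here.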

Additional observations from a re-analysis of the deposited data

How the results depend on the processing

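Under edgeR's quasi-likelihood test 0 genes were called, and 0 under each alternative except those given here: DESeq2 called 198 genes, and the test with no filter on low counts called 1. That gene, Clec4n, chosen after its values were seen, had 28503 of its counts in the 97Q RGFP109 sum of batch 2, 28500 of them in 1 cell. With no replicate block for batch, whose labels pair the sums, the count stayed at 0, with 304 genes at an unadjusted p under 0.05. That number was 310 to 733 when 1 batch was left out, and 503 in the main test. For the 130 named genes, 1907 of 1950 estimates under 15 alternatives kept their direction, 43 in 18 genes reversed, and 27 passed the threshold, all with DESeq2. The cause of the reversals was not tested.

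Leaving out 1 batch moved the log2 fold change over −2.59 to 0.62 for Adora2a, −2.41 to 8.45 for Bdnf, −2.07 to 0.97 for Drd2, −0.91 to 0.28 for Hdac2, −0.19 to 0.31 for Ntrk2, −4.33 to 2.58 for Penk, −1.05 to 0.70 for Slc32a1 and −0.19 to 0.062 for mt-Nd5. With no block it was −0.18 for Bdnf, −0.70 for Drd2, 0.37 for Hdac2 and −1.54 for Penk. With only the 6 sums compared it was −0.12 for Bdnf, −1.06 for Drd2 and −2.90 for Penk. With limma-voom it was −1.76 for Drd2, 0.23 for Hdac2, −0.049 for Ntrk2, −4.18 for Penk and 0.14 for Slc32a1. Without 97Q RGFP109 cell 10 it was −2.45 for Drd2, −0.070 for Ntrk2 and −5.55 for Penk. With cells thinned to 900000 counts it was −0.45 for Drd2 and 0.22 for Slc32a1. As a mean log2 level over cells it was −0.21 for Drd2, 0.093 for Frs2, 0.16 for H3f3b, 0.11 for Hdac2, 0.19 for Hdac9, −0.41 for Kdm1a, −0.14 for Mlc1, −0.050 for Ncoa1, −0.10 for Ntrk2, 0.052 for Ntrk3 and −0.64 for Penk. Without neurons rich in astrocyte markers it was −1.83 for Tsix, 0.030 for mt-Nd1, 0.13 for mt-Nd2 and 0.15 for mt-Nd5. Without the 3 cells low in pan-neuronal genes, an alternative chosen after seeing the data, it was 0.037 for Hdac2. Depth per cell limits genes carried by few cells, and batch 2 had 4 cells in each group.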

Other observations

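In the 9 neurons with the empty vector, which are in batch 3 only and enter no comparison, the sum held 2808 CPM of Gad1, 1550 CPM of Gad2, 540 CPM of Nnat, 576 CPM of Pnck, 405 CPM of Sv2a and 1183 CPM of Syp. The batch 3 sums for Nnat were 45.3 CPM in 97Q RGFP109 neurons and 279 CPM in 25Q vehicle neurons. Over cells, the median of Nnat was 43.4 CPM in 97Q vehicle neurons and 219 CPM in 25Q RGFP109 neurons.

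The interneuron marker Kit, a receptor tyrosine kinase, had 0.0734, 0 and 0.157 CPM in 97Q RGFP109 sums against 6.69, 34.2 and 135 CPM in 25Q vehicle sums, and 90.4% of the 25Q vehicle counts came from 1 cell.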
